A study of Mus musculus with 2 samples.

Results

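The Hand, Twist, Tcf21, Tcf15 and Id genes encode basic helix-loop-helix (bHLH) transcription factors and their inhibitors. The 10 genes Hand1, Hand2, Twist1, Twist2, Tcf21, Tcf15, Id1, Id2, Id3 and Id4 were taken by name from the deposited expression table, in which each had 1 entry of its own among 29126 entries. Messenger RNA was sequenced strand-specifically from 1 library of Dnmt1+/+ and 1 library of Dnmt1-/- mouse embryonic fibroblasts (MEFs), which are mesenchymal cells grown from embryos. The line called Dnmt1-/- is homozygous for a hypomorphic allele of Dnmt1, the gene for the maintenance DNA methyltransferase, and both lines are null for trp53. Each genotype is thus represented by a single cell line, whose mouse strain the labels give as unknown, so genotype and line cannot be told apart. The comparison asks which genes differ in expression when DNA methylation is strongly reduced.

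Proteins with a bHLH domain bind DNA as dimers at the E-box, written CANNTG. Hand, Twist, Tcf21 and Tcf15 proteins are tissue-restricted and pair with broadly expressed E proteins, the products of Tcf3, Tcf4 and Tcf12. The Id proteins lack the basic, DNA-contacting region, so a dimer of an Id protein and an E protein does not bind DNA. Hand1 and Hand2 are known for heart, branchial arch and limb development, Twist1 and Twist2 for cranial, limb and dermal mesenchyme, Tcf21 for the mesenchyme of lung, kidney and epicardium, and Tcf15 for the somites. Id1, Id2 and Id3 are well-known target genes of bone morphogenetic protein (BMP) signalling.

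Values are RPKM, the reads on a transcript scaled to its length and to the mapped reads, so that levels of different genes can be set side by side. Changes are differences of log2(RPKM + 0.1), Dnmt1-/- minus Dnmt1+/+, which makes differences between low values look smaller than they are. A gene was kept for counting where Cuffdiff gave it the status OK, it carried a symbol, and it reached 1 RPKM in either library, which left 11244 genes. Their median log2 change was -0.14. The table holds no read counts, so the depth behind a single value is unknown, and since each genotype has 1 library, no difference can be set against replicate error and no p-value is given. Dnmt1 itself was at 65.2 RPKM in Dnmt1+/+ and 14.5 in Dnmt1-/- MEFs. The libraries also differed in transcripts of the sex chromosomes, with Xist at 0.00648 RPKM in Dnmt1+/+ and 37.0 in Dnmt1-/-. The Y-linked Ddx3y, Eif2s3y and Kdm5d ranged from 5.90 to 18.8 RPKM in Dnmt1+/+, and all 3 had a value of 0 in Dnmt1-/-.

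All 10 defining fibroblast markers examined were kept, and their summed RPKM was 6400 in Dnmt1+/+ and 5076 in Dnmt1-/-. By more than 2-fold, 2 of the 10 were higher and 3 lower in Dnmt1-/-, and 5, among them Col1a1, Vim and Prrx1, were within 2-fold. The higher ones were S100a4, which went from 289.6 RPKM in the wild type to 1262, and Pdgfra, from 6.95 to 18.7. Col1a2, at 1241 and 475.9 RPKM, Fn1, at 663.7 and 235.5, and Thy1, at 4.84 and 0.129, were the lower ones. Markers of other cell types also differed between the libraries. The summed RPKM of 3 leukocyte markers was 0.666 in Dnmt1+/+ and 9.71 in Dnmt1-/-, mostly from Csf1r and Cd68, while Ptprc, the pan-leukocyte antigen, was listed at 0 in both libraries. The 6 muscle markers summed to 8.56 RPKM in Dnmt1+/+ and 31.8 in Dnmt1-/-, and the higher sum came from Tnnt2, at 2.30 and 27.7. Actc1, at 5.90 and 4.01 RPKM, Des, at 0.318 and 0.078, and Myh6, at 0.0284 and 0.00117, were lower in Dnmt1-/-. Myog and Myod1 stayed below 0.05 RPKM in both libraries. The 4 neural markers summed to 66.9 RPKM in Dnmt1+/+ and 138.8 in Dnmt1-/-, and Nes, at 50 and 125.8 RPKM, gave most of this. Tubb3 went the other way, at 16.9 and 12.9 RPKM, and Sox2 and Sox10 stayed below 0.05 RPKM in both libraries. The 5 epithelial markers summed to 7.19 RPKM in Dnmt1+/+ and 1.06 in Dnmt1-/-, mostly through Krt19, at 6.90 and 0.326. Krt8, at 0 and 0.216 RPKM, and Krt18, at 0.0358 and 0.441, were higher in Dnmt1-/-. Cdh1 and Epcam were lower there, from levels under 1 RPKM. The 4 endothelial and 4 pluripotent or germ cell markers each stayed below 1 RPKM in sum in both libraries. The part of these cell types in the results was not tested.

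DNA methylation in mammals is found mainly at CpG dinucleotides, and the promoters of the members differ in how many they hold. The RefSeq promoter table (GRCm38.p6) matched 7 of the 10 members, and not Hand1, Tcf15 and Id1. The 250 bases upstream of the transcription start are shown for 3 members with more than 2-fold higher RPKM in Dnmt1-/- MEFs and for Tcf21, which was listed at 0 in both libraries. Capitals mark CpG dinucleotides.
Hand2, chr8:57320733-57320982, plus strand: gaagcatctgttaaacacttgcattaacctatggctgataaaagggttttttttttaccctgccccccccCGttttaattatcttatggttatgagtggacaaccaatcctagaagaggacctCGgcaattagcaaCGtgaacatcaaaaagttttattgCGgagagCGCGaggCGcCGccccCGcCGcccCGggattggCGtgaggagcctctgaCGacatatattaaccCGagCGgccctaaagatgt
Id2, chr12:25096093-25096342, minus strand: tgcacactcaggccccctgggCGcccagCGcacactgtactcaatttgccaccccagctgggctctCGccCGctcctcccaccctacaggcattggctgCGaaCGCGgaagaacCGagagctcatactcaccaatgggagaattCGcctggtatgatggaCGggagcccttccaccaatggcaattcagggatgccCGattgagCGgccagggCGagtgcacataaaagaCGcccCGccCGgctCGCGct
Twist2, chr1:91801211-91801460, plus strand: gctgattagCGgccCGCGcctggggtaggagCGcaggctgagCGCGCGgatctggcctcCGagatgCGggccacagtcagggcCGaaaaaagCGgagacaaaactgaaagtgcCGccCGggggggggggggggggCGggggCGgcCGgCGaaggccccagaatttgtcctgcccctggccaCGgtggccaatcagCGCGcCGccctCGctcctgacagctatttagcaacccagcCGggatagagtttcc
Tcf21, chr10:22820144-22820393, minus strand: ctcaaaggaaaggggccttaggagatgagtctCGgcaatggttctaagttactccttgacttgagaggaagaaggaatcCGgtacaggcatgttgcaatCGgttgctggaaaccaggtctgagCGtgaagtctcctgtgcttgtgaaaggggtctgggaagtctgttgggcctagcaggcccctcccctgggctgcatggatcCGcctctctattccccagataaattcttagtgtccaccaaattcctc
These windows hold 15 CpG in Hand2, 18 in Id2, 23 in Twist2 and 5 in Tcf21, where the median of 32851 promoters in the table was 6. Of the members not printed, Twist1 and Id3 hold 18 CpG each and Id4 holds 35, a number that 2.97% of promoters reach. The Id4 window is less certain, as its transcript start did not match the annotated Id4 transcripts, unlike those of the other members matched. The CpG count thus does not separate the members that were higher in Dnmt1-/- from those that were not, since Twist1 and Id2 hold equally many. The E-box CANNTG, which reads alike on both strands, occurs in the window of 2 of the 7 members, with 2 matches in Hand2 and 1 in Id2, against 66.2% of all promoters. The sequence GGCGCC, a GC-rich element of the kind bound by Smad proteins and likewise the same on both strands, is found in Hand2, Id2 and Id4 and in 9.59% of all promoters.

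**Figure D1:**
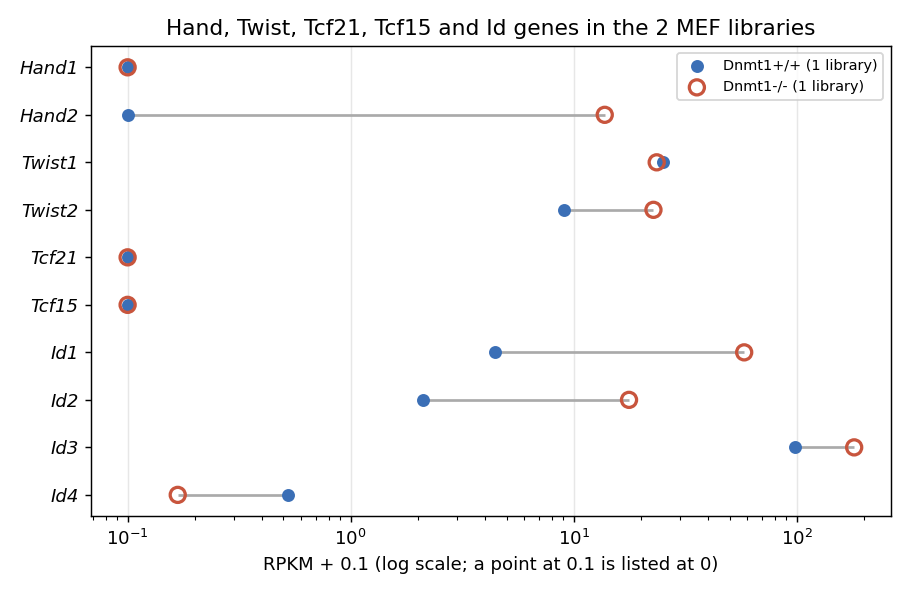
RPKM + 0.1 on a log axis for the 10 members in the Dnmt1+/+ library (filled blue points) and the Dnmt1-/- library (open red circles), 1 library each, joined by a grey line. Hand2, Id1, Id2 and Twist2 lie clearly to the right in Dnmt1-/-, Twist1 overlaps, Id4 lies to the left, and Hand1, Tcf21 and Tcf15 sit at the value for 0 in both libraries.

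Of the 10 members, 7 had the status OK, 6 were kept, and 4 exceeded their Dnmt1+/+ level more than 2-fold in Dnmt1-/- MEFs, as did 8.47% of all genes kept. The 4 are Hand2, Id1, Id2 and Twist2. None of the 6 was more than 2-fold lower, against 10.9% of all genes kept. Hand2 passed the minimum only through the Dnmt1-/- library and could not have been counted otherwise. Id3 and Twist1 were within 2-fold. Id4 had the status OK but was under 1 RPKM in both libraries, and Hand1, Tcf21 and Tcf15 had the status NOTEST and were listed at 0 in both. The median log2 change was 2.20 over the 6 kept and 0.44 over all 10 entries. No stretch of 50 bases in the annotated transcripts of any of the 10 genes occurs in a transcript of another protein-coding gene, so reads of this length do not match 2 of these transcripts exactly.

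Among the Hand genes, Hand2 was the member with the greatest contrast. Hand2 (chr8:59799780-59803314 in mm9, plus strand, 2 exons) was listed at 0 in Dnmt1+/+ MEFs and was at 13.7 RPKM in Dnmt1-/- MEFs. No fold is given against a value of 0. Of the 11244 genes kept, 86 (0.765%) were listed at 0 in Dnmt1+/+, and 15 of these, Hand2 included, were at or above the Hand2 level in Dnmt1-/-. The level in Dnmt1-/- was at or above that of 58.0% of the genes kept in that library. As these are bulk samples, a few cells with much Hand2 RNA and many cells with little cannot be told apart. Hand1, its paralog (chr11:57642207-57646320, minus strand), was listed at 0 in both libraries.

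The transcribed region around Hand2 was wider than the gene. Within 50 kb of the Hand2 entry the table holds 9 other entries, none with a gene symbol, and all lie on the 3′ side, from 7285 to 31566 bases past the end of Hand2. Each of the 9 was listed at 0 in Dnmt1+/+ and had between 1.59 and 146.8 RPKM in Dnmt1-/-, with a median of 9.06. Among all 8210 entries without a symbol and with status OK, 7.54% were listed at 0 in Dnmt1+/+ and more than 2-fold higher in Dnmt1-/-, and 19.2% were more than 2-fold higher from any level. The 2 highest values, 86.3 and 146.8 RPKM, belong to entries of 109 and 124 bases, a length at which RPKM is poorly determined. The longest, of 993 bases, was at 1.59 RPKM. The annotated non-coding gene 5033428I22Rik, on the same strand as Hand2, covers 4 of the 9 entries, and the other 5 overlap no annotated gene. The table does not give the strand of the entries, and neighbouring entries may be pieces of a single transcript.

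**Figure D2:**
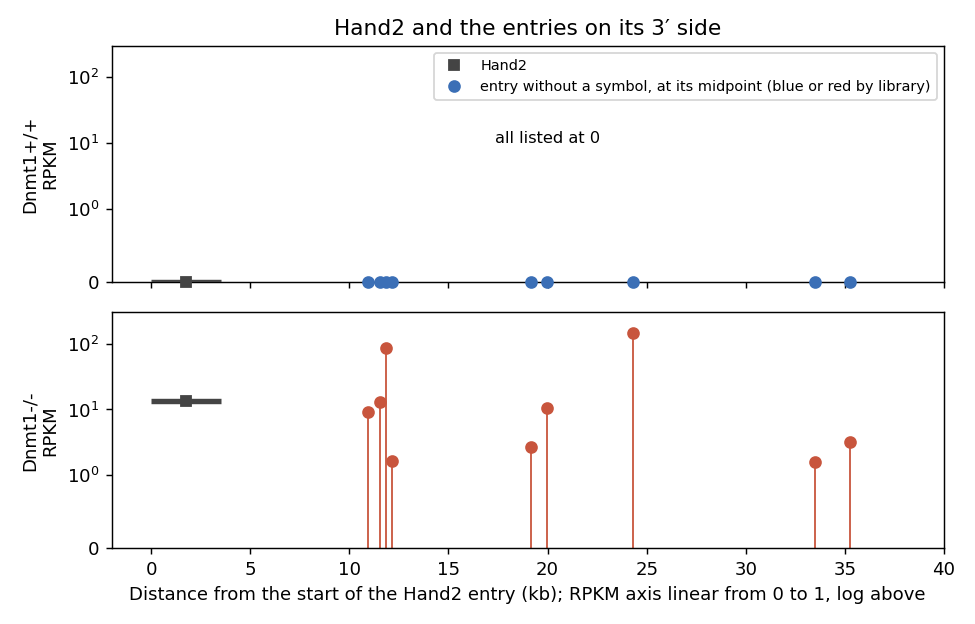
RPKM of the Hand2 entry (grey square and line, drawn over its length) and of the 9 entries without a symbol on its 3′ side (points at their midpoints), by distance in kb from the start of Hand2, with Dnmt1+/+ above and Dnmt1-/- below, on an axis that is linear from 0 to 1 and logarithmic above. Every point lies at 0 in Dnmt1+/+ and at 1.59 RPKM or more in Dnmt1-/-.

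The 2 Twist genes differed from each other. Twist1 (chr12:34642536-34644682, plus strand) was at 25 RPKM in Dnmt1+/+ and 23.5 in Dnmt1-/- MEFs. Its log2 change of -0.091 becomes 0.050 relative to the median of all genes, so no direction is read from it. Twist2 (chr1:93698038-93744605, plus strand) was at 8.96 RPKM in Dnmt1+/+ and 22.7 in Dnmt1-/-, which is 2.53-fold higher, and its log2 change was 1.33. The ratio of Twist1 to Twist2 RPKM, which does not depend on how the libraries were scaled, was 2.79 in Dnmt1+/+ and 1.03 in Dnmt1-/-. Twist1 RNA thus exceeded Twist2 RNA in Dnmt1+/+, and their levels were nearly equal in Dnmt1-/-.

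No RNA was recorded for Tcf21 and Tcf15. Tcf21 (chr10:22537085-22539934, minus strand) and Tcf15 (chr2:151969297-151974833, plus strand) were both listed at 0 in both libraries. Srxn1, a named neighbour of Tcf15 within 50 kb, was at 18.3 RPKM in Dnmt1+/+ and 13.9 in Dnmt1-/-, so the region around Tcf15 was not without RNA. Scrt2, the other named neighbour, had the status NOTEST and was listed at 0 in both libraries.

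The Id genes, which encode the inhibitors, include the member with the highest level, Id3, and large differences were seen in Id1 and Id2. Id1 (chr2:152561987-152563146, plus strand) was at 4.33 RPKM in Dnmt1+/+ and 58.1 in Dnmt1-/- MEFs, which is 13.4-fold higher, and its log2 change was 3.72. On this scale 206 of the 11244 genes kept had a greater increase. Id2 (chr12:25778666-25780957, minus strand) was at 2.0 RPKM in Dnmt1+/+ and 17.6 in Dnmt1-/-, which is 8.80-fold higher, with a log2 change of 3.08. In the Dnmt1+/+ library Id2 lay among the lower genes kept, at or above 12.3% of them, and in Dnmt1-/- it was at or above 64.7%. For Id1 the corresponding shares were 24.7% and 88.7%.

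Id3 (chr4:135699412-135701670, plus strand) was the most abundant member in both libraries, at 97.8 RPKM in Dnmt1+/+ and 181.0 in Dnmt1-/-. The Dnmt1-/- value was 1.85 times the Dnmt1+/+ value, which is 0.89 on the log2 scale, and 1.03, past 2-fold, relative to the median of all genes. Id4 (chr13:48356796-48359405, plus strand) went the other way, with 0.423 RPKM in Dnmt1+/+ and 0.0678 in Dnmt1-/-, and its log2 change of -1.64 was not counted because of the minimum. Its entry overlaps A330033J07Rik, a non-coding gene on the opposite strand, and whether strand was used to assign the reads is not given in the sources used here, so the Id4 value is uncertain as well as low. The ratio of Id3 to Id1 RPKM was 22.6 in Dnmt1+/+ and 3.12 in Dnmt1-/-, and that of Id3 to Id2 was 48.9 and 10.3, so the Id RNA of Dnmt1-/- MEFs was less dominated by Id3.

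**Figure D3:**
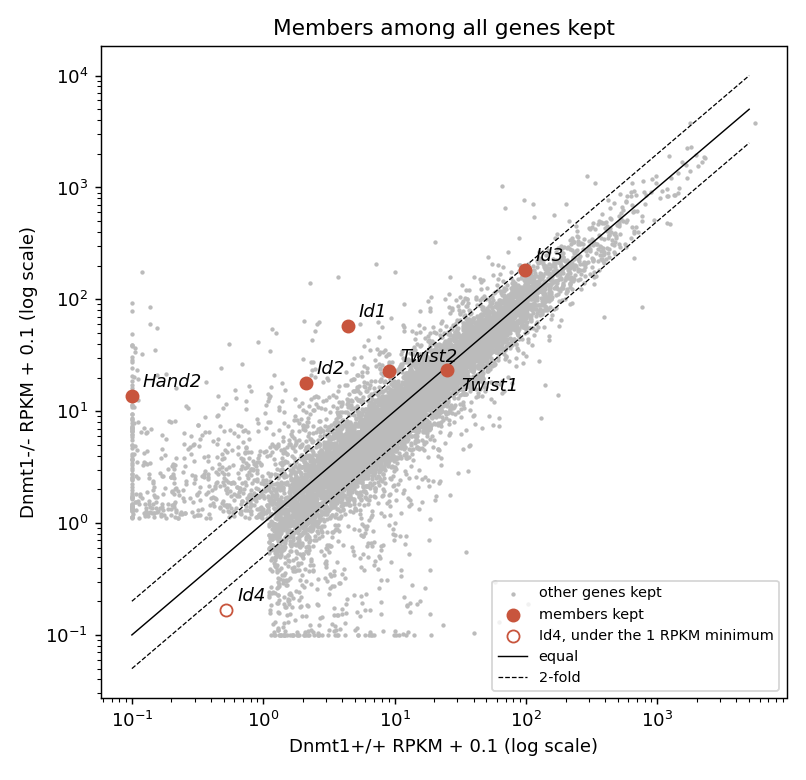
Dnmt1-/- against Dnmt1+/+ RPKM + 0.1, both on log axes, for the 11244 genes kept (grey), the 6 members kept (red) and Id4 (open circle), with lines for equal values and for 2-fold differences. Id1, Id2 and Hand2 lie far above the upper 2-fold line, Twist2 just above it, Id3 just below it, and Twist1 on the line of equality.

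In Dnmt1+/+ the members ranked Id3, Twist1, Twist2, Id1, Id2 and Id4, and in Dnmt1-/- they ranked Id3, Id1, Twist1, Twist2, Id2, Hand2 and Id4. The spread needed to say which neighbours in these orders differ could not be estimated. The genes nearest to Hand2 by distance in the log2 values of the 2 libraries were Sp100, Mov10l1 and Prr9, at distances of 0.08, 0.10 and 0.11, with Mov10l1 and Prr9 also listed at 0 in Dnmt1+/+. Those nearest to Twist1, the kept member with the lowest change, were Katna1, Tmed1 and Ddx56, all at 24.7 to 25 RPKM in Dnmt1+/+ and at 23.7 to 23.9 in Dnmt1-/-.

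Of the 3 E protein genes, which encode the dimer partners, 1 (Tcf4) was more than 2-fold lower in Dnmt1-/- MEFs, against 10.9% of all genes kept, and all 3 had lower values there. Tcf3 was at 60.2 RPKM in Dnmt1+/+ and 40.1 in the mutant library, a log2 change of -0.58. Tcf12 was at 33.6 and 24.8 RPKM, a log2 change of -0.43. Tcf4 was at 22.2 and 10.9 RPKM, a log2 change of -1.02, or -0.88, within 2-fold, relative to the median of all genes. All 3 values were also lower relative to that median, and Tcf12 lay inside the middle of all genes kept, whose lower quartile of log2 change was -0.56.

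In sum, E protein RNA was slightly above Id RNA in the Dnmt1+/+ library, and Id RNA was above E protein RNA in the Dnmt1-/- library. With 1 library per genotype, the order of the close sums in Dnmt1+/+ cannot be set against replicate error. The summed RPKM of Id1, Id2, Id3 and Id4 was 104.5 in Dnmt1+/+ and 256.7 in Dnmt1-/-, while that of Tcf3, Tcf4 and Tcf12 was 115.9 and 75.8. The ratio of the sums was 0.902 in Dnmt1+/+ and 3.39 in Dnmt1-/-, a 3.75-fold difference that does not depend on the scaling of the libraries. Id3 made up 93.5% of the Id sum in Dnmt1+/+ and 70.5% in Dnmt1-/-. Without Id3, an alternative chosen after seeing the data, the Id sum was 6.75 and 75.7 RPKM, the ratio was 0.0583 and 0.999, and the difference between the libraries was 17.2-fold. These are RNA levels and say nothing of protein amounts.

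Among the other bHLH genes, 84 of the E protein, tissue-restricted, Hes and Hey, Myc and Max, and PAS families had an entry, and 35 were kept. Of the 35, 4 were higher and 5 lower by more than 2-fold in Dnmt1-/-, with a median log2 change of -0.21. Of all genes kept, 8.47% were higher and 10.9% lower to that extent, and 3 of the 35 reached the minimum only in Dnmt1-/- and 2 only in Dnmt1+/+. The tissue-restricted genes outside the members were mostly without RNA, as 18 of 35 entries were listed at 0 in both libraries and 4 were kept. Among the 4 kept, 3 were higher by more than 2-fold, against 8.47% of all genes kept, but Myf5 and Bhlhe22 passed the minimum only through the Dnmt1-/- library. Atoh8, an atonal-related factor, was at 1.96 RPKM in Dnmt1+/+ and 17.5 in Dnmt1-/-, Myf5, a myogenic factor, was at 0.106 and 3.28, and Bhlhe22 was listed at 0 and was at 1.19. The other, the tendon factor Scx, was at 23.1 and 18.4 RPKM.

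The Hes and Hey repressors, several of which are targets of Notch signalling, had 5 genes kept and 1 more than 2-fold lower, Hey2, at 1.77 RPKM in Dnmt1+/+ and 0.144 in Dnmt1-/-. Of 16 bHLH-zipper genes kept, the Myc antagonist Mxd4, at 33.6 and 14.2 RPKM, and Mycl1, at 1.35 and 0.526, were more than 2-fold lower, and Mitf, at 0.451 and 1.03, was more than 2-fold higher. Of 7 bHLH-PAS genes kept, the clock-related Arntl2, at 6.81 RPKM in Dnmt1+/+ and 2.67 in Dnmt1-/-, was the one more than 2-fold lower. These counts stand against 8.47% higher and 10.9% lower among all genes kept. Hey2 and Mycl1 passed the minimum only through Dnmt1+/+, and Mitf only through Dnmt1-/-, which fixes their direction. No other bHLH gene listed reached the Dnmt1-/- level of Id3.

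**Figure D4:**
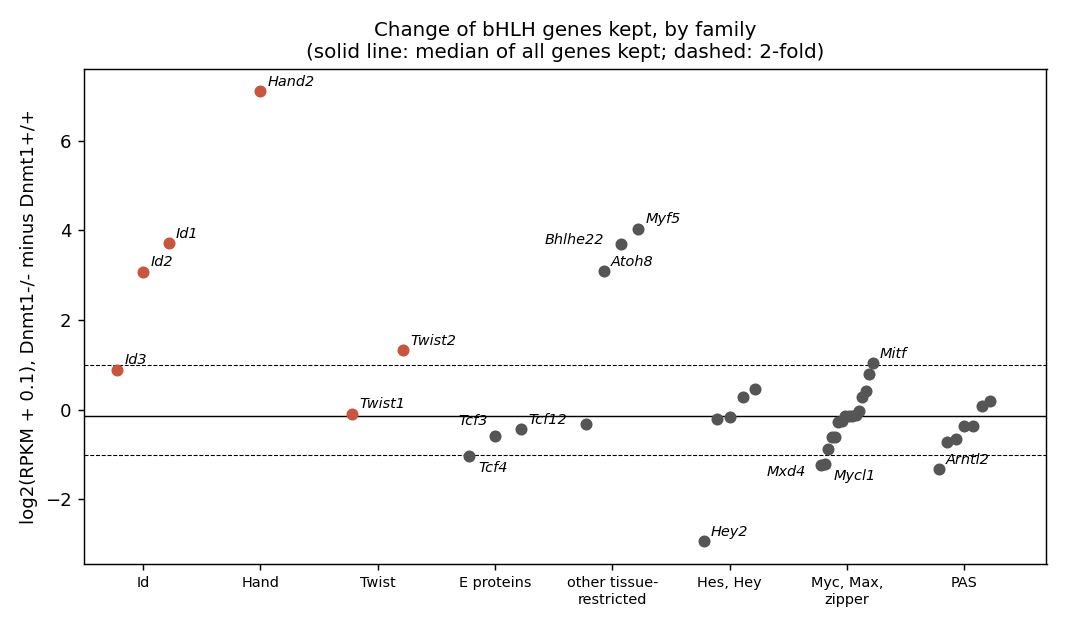
Change in log2(RPKM + 0.1), Dnmt1-/- minus Dnmt1+/+, of each bHLH gene kept, by family, with members in red, other families in grey, the median of all genes kept as a solid line (-0.14) and 2-fold as dashed lines. Points of the Hes, Myc and PAS families lie mostly within 2-fold, with Hey2, Mxd4, Mycl1 and Arntl2 below and Mitf above, while Id1 and Id2 lie above 3; the height of Hand2 and Bhlhe22, listed at 0 in Dnmt1+/+, depends on the value of 0.1 that is added.

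BMP signalling genes were examined because BMP ligands induce Id genes through Smad proteins. Of 24 genes listed, 23 had an entry and 15 were kept. By more than 2-fold, 5 of the 15 were higher and 2 lower in Dnmt1-/-, with a median log2 change of -0.21, where the shares of all genes kept were 8.47% and 10.9%. Bmp2, Smad9 and Bmpr1b passed the minimum only through Dnmt1-/-, and Bambi and Fst only through Dnmt1+/+, which fixes their direction. Relative to the median of all genes, 6 were higher and 2 lower. The ligand Bmp2 was at 0.0164 RPKM in Dnmt1+/+ and 6.44 in Dnmt1-/-, while Bmp4 was at 11 and 12.4. Smad6, an inhibitory Smad that BMP signalling itself induces, was at 4.53 and 18.8 RPKM, a 4.14-fold higher value. Smad7, the other inhibitory Smad, was at 4.25 and 12.7 RPKM, and Smad9 was at 0.581 and 3.68. The secreted antagonist Grem1 was at 37.0 RPKM in Dnmt1+/+ and 120.5 in Dnmt1-/-. Smad7 and Bmp4 were named after their values were seen.

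The 2 BMP genes that were lower are also antagonists. Bambi, a pseudoreceptor, was at 3.19 RPKM in Dnmt1+/+ and 0.521 in Dnmt1-/-. Fst, which encodes follistatin, was at 1.09 and 0.140. The receptors Bmpr1a, Bmpr2 and Acvr1 and the signal-carrying Smad1, Smad4 and Smad5 were within 2-fold. Smad9, given above, was more than 2-fold higher, so this does not hold for all Smad genes outside the inhibitory ones. The receptor gene Bmpr1b (0.636 RPKM in the wild type, 1.33 in the mutant) had a log2 change of 0.96 and is the sixth gene past 2-fold relative to the median of all genes. Apart from Smad9, the receptor and Smad genes of this paragraph were named after their values were seen.

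Genes that act with Hand and Twist factors in limb, branchial arch and heart mesenchyme went in both directions. All 26 listed had an entry and 20 were kept. By more than 2-fold, 3 of the 20 were higher and 6 lower in Dnmt1-/-, against 8.47% and 10.9% of all genes kept, and the numbers are 4 and 5 relative to the median of all genes. The other 11 of the 20 were within 2-fold. Gata4 and Nkx2-5 passed the minimum only through Dnmt1-/-, and Alx4, Dlx5, Dlx6, Ednra and Msx2 only through Dnmt1+/+, which fixes their direction. Above the minimum in both libraries and past 2-fold were Prrx2, at 9.33 RPKM in Dnmt1+/+ and 21.5 in Dnmt1-/-, Edn1, at 4.31 and 1.79, and Fgfr1, at 50.1 and 22.8. Prrx2, Edn1 and Fgfr1 were named after their values were seen. Gata4, a cardiac and mesenchymal factor that acts with Hand2, was at 0.151 RPKM in Dnmt1+/+ and 5.0 in Dnmt1-/-. Nkx2-5, a cardiac homeobox gene, was at 0.143 and 1.58. Tbx5, another heart and forelimb factor, was listed at 0 in both libraries, and it was named after its values were seen. Dlx5 and Dlx6, which lie upstream of Hand2 in the branchial arches, were at 3.56 and 1.34 RPKM in Dnmt1+/+, and in Dnmt1-/- Dlx5 was at 0.0503 and Dlx6 was listed at 0. Ednra, the endothelin receptor of the same arch pathway, was at 3.37 and 0.0494 RPKM. Alx4, a limb and craniofacial homeobox gene, was at 10.7 RPKM in Dnmt1+/+ and listed at 0 in Dnmt1-/-.

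**Figure D5:**
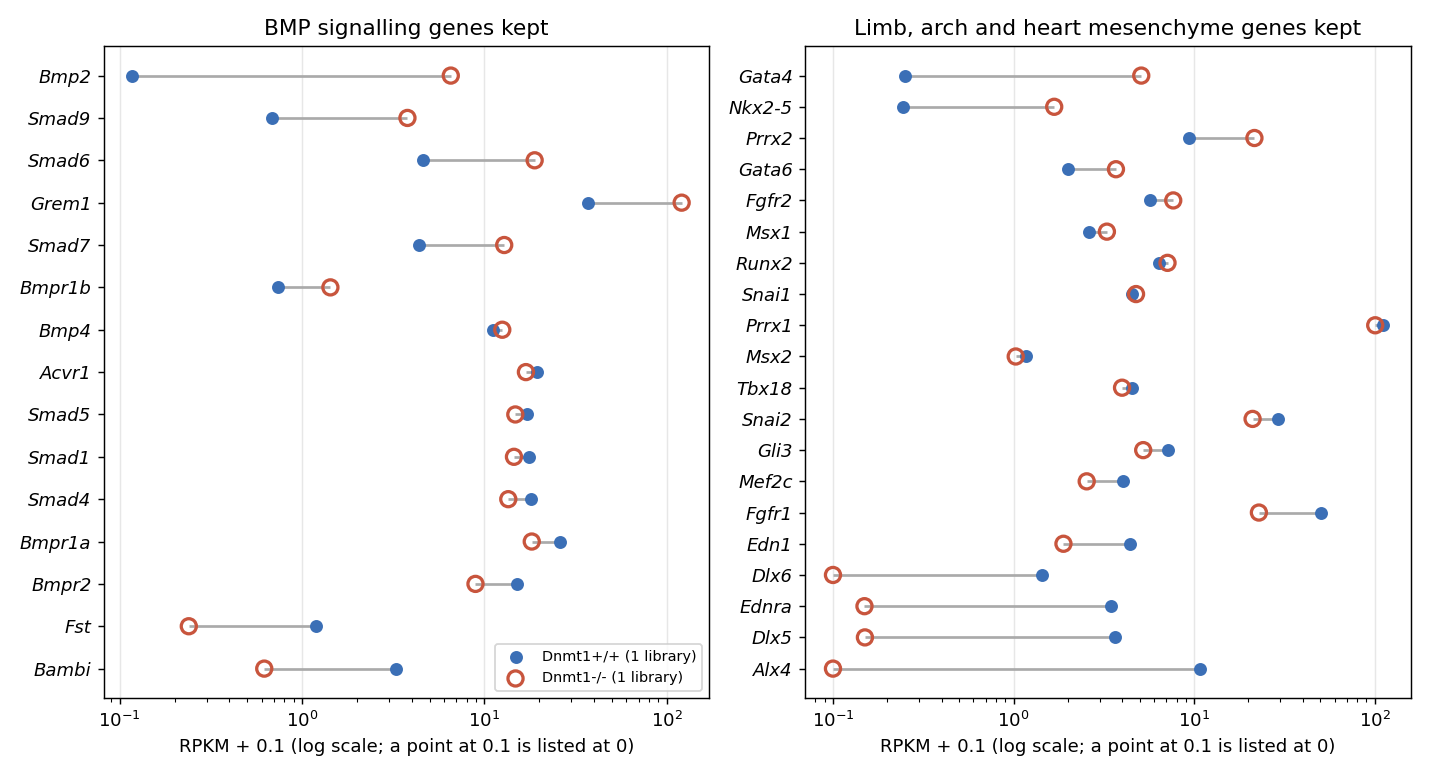
RPKM + 0.1 on log axes in Dnmt1+/+ (filled blue) and Dnmt1-/- (open red), 1 library each, for the 15 BMP signalling genes kept (left) and the 20 limb, arch and heart mesenchyme genes kept (right), ordered by change. Bmp2, Smad9 and Gata4 lie far to the right in Dnmt1-/-, Alx4, Dlx5, Dlx6 and Ednra far to the left, and Bmpr1a, Acvr1, Smad1, Smad4 and Smad5 show points close together.

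Named neighbours of the members were mostly within 2-fold. Within 50 kb of a member lay 8 named entries with status OK. Hand2 and Twist2 had no named neighbour in this range, and Mcts2 and H13 near Id1 share the same locus. Of the 8, none was more than 2-fold higher and 1 was more than 2-fold lower, against 8.47% and 10.9% of all genes kept. Counts this small do not set the neighbours apart from other genes. The lower one was E2f2 next to Id3, at 1.13 RPKM in Dnmt1+/+ and 0.402 in Dnmt1-/-. E2f2 reached 1 RPKM only in Dnmt1+/+, which fixes its direction. Kidins220, the neighbour of Id2, was at 28.0 and 36.4 RPKM. On either side of Id1, H13 was at 34.1 and 29.7 RPKM and Bcl2l1 at 13.3 and 20.5.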

How the data were processed

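The authors aligned strand-specific mRNA-seq reads to the mm9 genome (Tophat), built transcripts (Cufflinks) and estimated their abundance (Cuffdiff). The versions are not given in the sources used here. They deposited RPKM values, 1 column per library, with a status for each entry, and no read counts. Entries were matched by the comma-separated symbols of their gene field, and starts are given 1-based in mm9, with gene extents from the NCBI37 annotation (GENCODE M1). Changes were differences of log2(RPKM + 0.1) among genes with status OK, a symbol and at least 1 RPKM in either library. With 1 library per genotype no test was run. A gene was counted as higher or lower past 2-fold. Of each gene list, up to 6 genes past 2-fold with the largest change were named by rule. A gene of these lists is not reported here and was left out of its list. The members and lists were chosen with earlier results of these data known. Promoters are from RefSeq (GRCm38.p6), and no coordinates were converted between builds. How often a gene is wrongly counted as past 2-fold was not tested. Alternatives were pseudocounts of 1, 0.01 and none, other filters, median subtraction, upper quartile scaling, and thresholds of 1.5-fold and 4-fold. Python 3.11.15 was used, with numpy 2.4.6, pandas 2.3.3 and matplotlib 3.10.9.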

Additional observations from a re-analysis of the deposited data

Results flagged for a closer look

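Entries without a gene symbol stand outside the comparison of named genes. The 3 results given here were picked because they were more than 2-fold higher in Dnmt1-/- than in Dnmt1+/+ MEFs, so their direction is not a finding. The other entries without a symbol near members were not higher to that extent, and the one near Tcf21 was lower, at 264.9 RPKM in Dnmt1+/+ and 24.2 in Dnmt1-/-. Near Hand2, 9 such entries were more than 2-fold higher in Dnmt1-/- and listed at 0 in Dnmt1+/+. In order of distance from Hand2 their Dnmt1-/- values were 9.06, 13.2, 86.3, 1.67, 2.71, 10.7, 146.8, 1.59 and 3.25 RPKM. Near Hand1, which was itself listed at 0, an entry of 192 bases within the non-coding gene 2010001A14Rik was at 2.59 RPKM in Dnmt1+/+ and 15.8 in Dnmt1-/-, while the 2 other entries in that gene were at 1.89 and 4.77 RPKM in Dnmt1+/+ and at 1.35 and 5.62 in Dnmt1-/-. On the 3′ side of Twist2, an entry of 261 bases was at 1.56 RPKM in Dnmt1+/+ and 3.43 in Dnmt1-/-. Of all entries without a symbol and with status OK, 19.2% were more than 2-fold higher in Dnmt1-/-. None of these differences has a replicate check.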

How the results depend on the processing

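The number of members more than 2-fold higher was 4 and lay between 3 and 5 under the alternatives, and Hand2, Id1 and Id2 were the 3 at a 4-fold threshold. Without a pseudocount Hand2 drops out, as it has no ratio, and the median log2 change of the members was 1.34 in place of 2.20. Without a filter on low RPKM, Id4 enters with a change of -1.64, the number of members more than 2-fold lower was 1 in place of 0, and the median was 1.33. Subtracting the median change turned Twist1 from -0.091 to 0.050 and took Id3 past 2-fold. Twist2 is not past a 4-fold threshold. The fold difference of the Id to E protein ratio was 3.75, and 17.2 without Id3, which by construction removes the most abundant and least changed of the higher Id genes. No paired analysis was possible because each genotype has 1 library, and for the same reason no replicate could be left out. The deposited RPKM table carries no counts, so no depth limit is given for a gene.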

Other observations

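An entry of 84 bases on the 3′ side of Tcf21, without a symbol, was at 264.9 RPKM in Dnmt1+/+ and 24.2 in Dnmt1-/-, while Tcf21 was listed at 0 in both libraries. At this length RPKM is poorly determined. An entry of 424 bases lies 524 bases upstream of the Twist2 entry and was at 2.57 RPKM in Dnmt1+/+ and 1.48 in Dnmt1-/-, the opposite direction to Twist2 itself. Ferd3l, a bHLH gene next to Twist1, was listed at 0 in both libraries although Twist1 was at 25 and 23.5 RPKM.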
